A study of Glycine max with 4 samples.

Results

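Reference genes are the internal standards of quantitative PCR (qPCR): the level of a gene under study is divided by theirs, so any change in the standard is passed on to the result. The 7 gene models listed here are widely used for this purpose in soybean (Glycine max), and 6 of them were analysed, out of 54175 gene models in the expression table used here. They are actin (Glyma18g52780), an elongation factor (Glyma02g44460), the F-box gene cons6 (Glyma12g05510), TIP41 (Glyma20g26690), cons4 (Glyma12g02310) and cons15 (Glyma05g37470). The other one, cons7 (Glyma03g29350), was not analysed here. A model whose identifier differs in the last digit (Glyma03g29351) was not taken in its place. The names come from the list of reference genes and not from the files, which give identifiers only.

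A good reference gene holds a constant level over the tissues and treatments compared, relative to total RNA. Candidates are taken from housekeeping functions: actin forms the filaments of the cytoskeleton, elongation factors bring aminoacyl-tRNA to the ribosome or recharge the factor that does, F-box proteins select targets for ubiquitin ligases, and TIP41 is known from yeast as a regulator of phosphatases in TOR signalling. The cons genes take their name from constitutive expression in surveys of soybean transcripts. Drought is a demanding case for such genes, because growth, protein synthesis and RNA content of a leaf can all shift as water runs short.

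Leaf RNA of 2 lines was sequenced: PI 567690, labelled drought tolerant, and Pana, labelled drought susceptible. The 4 groups were PI 567690 drought, PI 567690 control, Pana drought and Pana control, with 3 libraries each, which the series design calls biological replicates. Droughted plants were stressed for 15 days from the V5 vegetative stage, and the leaves of all groups are labelled R2, a flowering stage; all grew in pots of soil and sand. No label ties a library to its plants, and the spread behind each p-value may therefore be partly technical. Levels are FPKM, fragments mapped to a gene corrected for its length and for the depth of sequencing. They are relative levels in whole leaves, in which fewer cells of a type and less RNA per cell cannot be told apart. The leaf label was not checked against marker genes, because no identifier of the table could be paired with a name.

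The libraries differed in depth and in likeness to their own groups. The size of 1 read in FPKM put the shallowest (PI 567690 drought library 1) at 48.3% of the deepest (Pana drought library 3). Pana control library 1 listed 15657 gene models at 0, against 9535 to 12093 in the other 11 libraries. Pana drought library 3 correlated better with PI 567690 control library 1 (r = 0.938 across gene models) than with the other droughted Pana libraries (0.863 at most). The best match of any pair was that of PI 567690 drought libraries 2 and 3 (r = 0.992).

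The reads behind the values could be recovered for most of the genes. For 5 of the 6 the FPKM values of the 12 libraries could be turned back into whole reads within 0.06 reads. Cons15 passed this limit narrowly, at 0.0597 reads, while the others of the 5 lay at 0.0131 or less. Actin rested on 988 to 3688 reads per library and cons15 on 658 to 2622 reads. Cons6 rested on 360 to 1711 reads, the elongation factor on 357 to 1096 and TIP41 on 390 to 1013. Counting alone therefore contributed an error of at most 5.29% to a value of these genes. Cons4 gave no set of whole reads, so its depth is not known. The ratio of the highest to the lowest library, given below, was well beyond that error for each of these 5.

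Over the 12 libraries cons15 had the highest level, 97.7 ± 41.3 FPKM (mean ± SD, n = 12), and actin came next with 49.9 ± 7.93 FPKM. Cons15 stood above actin in 12 of 12 libraries, and actin above the elongation factor (29.4 ± 6.95 FPKM) in 12 of 12. The lower ranks were closer. The elongation factor exceeded cons4 (24.7 ± 6.88 FPKM) in 10 of 12 libraries, cons4 exceeded cons6 (24.6 ± 4.81 FPKM) in 7 of 12, and cons6 exceeded TIP41 (20.8 ± 5.1 FPKM) in 9 of 12. The means of these neighbours lay closer together than their SDs over libraries, and the ranks were not tested. All 6 are among the more abundant transcripts: 85% of the 32697 gene models tested lay below the least abundant of them by mean level.

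**Figure D1:**
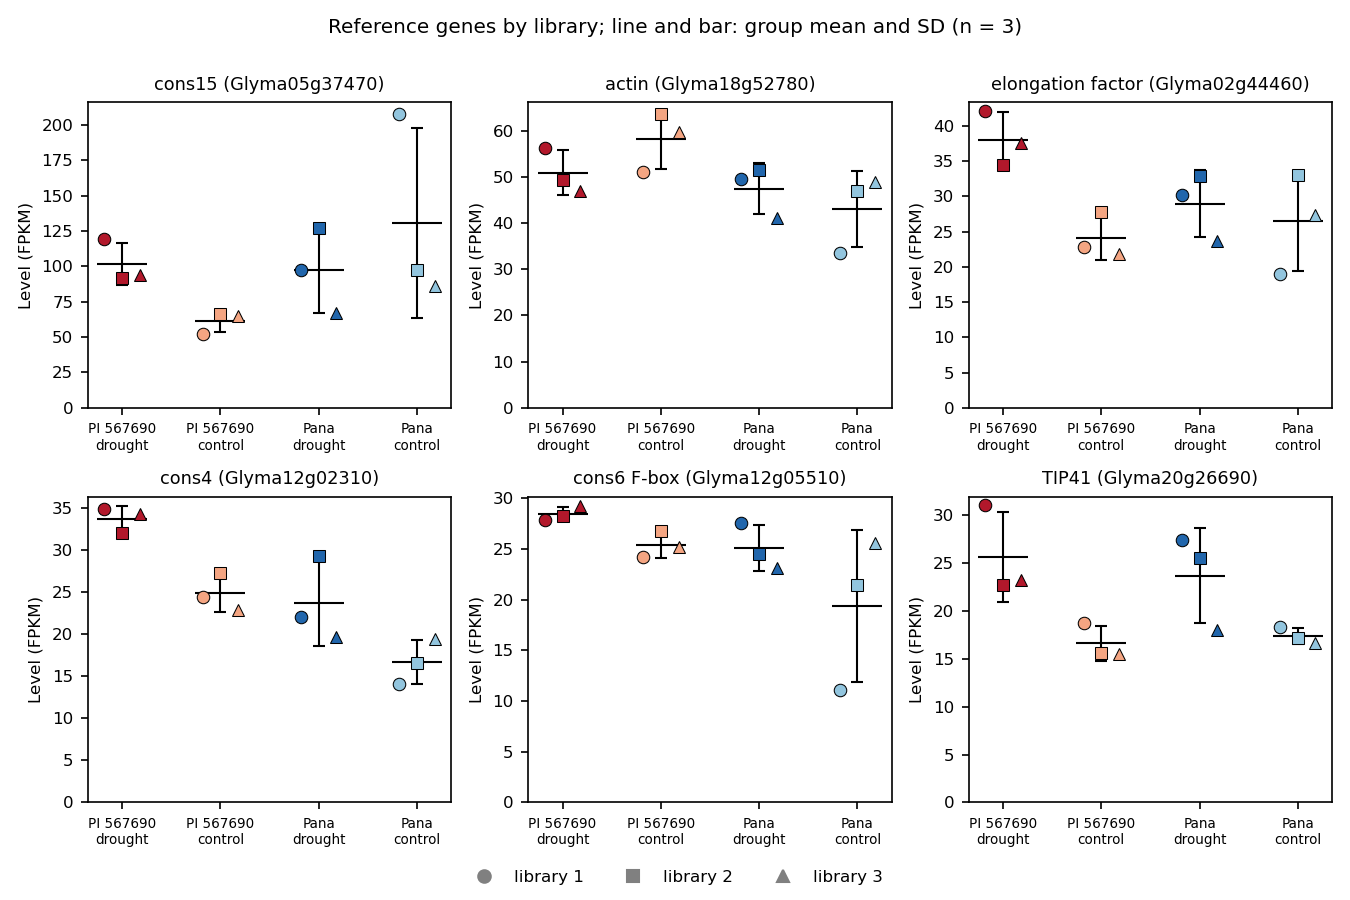
Levels of the 6 reference genes in FPKM (vertical axes, each starting at 0) in the 12 libraries by group; symbols mark the libraries, and lines with bars the mean and SD of 3 libraries. Actin overlaps between drought and control in both lines, cons4 does not overlap between drought and control in either line, and Pana control library 1 stands apart for cons15 (208 FPKM) and cons6 (11.1 FPKM).

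The first question was whether drought moved the standards in PI 567690. With all 12 libraries fitted together, 0 of the 6 passed (limma, Benjamini-Hochberg adjusted p under 0.05), in a comparison that called 12.3% of all gene models tested. The data of PI 567690 nevertheless lay apart for 5 of the 6, each higher in every drought library than in every control library. That pattern was common, since 42.4% of all gene models tested were higher in drought with no overlap. None of the 6 was lower with no overlap, against 21.4% of all gene models tested. At an unadjusted p under 0.05 the elongation factor and TIP41 passed, 2 of the 6, against 30% of all gene models tested. The median log2 difference of the 6 was 0.51, and that of all gene models tested was 0.21.

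The elongation factor had 42.1, 34.4 and 37.6 FPKM in the PI 567690 drought libraries, against 22.8, 27.8 and 21.8 FPKM in the PI 567690 control libraries. The log2 difference on the log2(FPKM + 1) scale, which is used for all differences and tests here, was 0.64 ± 0.24 (SE), with a 95% interval from 0.1 to 1.18 (adjusted p = 0.108). All droughted libraries were thus above all watered ones, by a mean ratio of 1.58, but the adjusted test did not pass.

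TIP41 showed a gap of like size. It had 31.1, 22.7 and 23.3 FPKM in PI 567690 drought and 18.7, 15.6 and 15.5 FPKM in PI 567690 control (log2 difference 0.59 ± 0.22 SE, interval 0.1 to 1.08, adjusted p = 0.102). Drought library 1 was the highest of the 12 for TIP41, as it was for the elongation factor and cons4.

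Cons15 had the widest gap of the 6, with 119, 92 and 93.8 FPKM in PI 567690 drought and 52.4, 66.4 and 64.8 FPKM in PI 567690 control. Its log2 difference was 0.72 ± 0.35 (SE), with an interval from -0.06 to 1.5 (adjusted p = 0.196). The groups did not overlap. The spread that set the interval is shared over all groups, and the SD of cons15 was 15.1 and 7.63 FPKM in PI 567690 drought and control, and 30.3 and 67.2 FPKM in Pana drought and control.

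Cons4 had 34.9, 32 and 34.2 FPKM in PI 567690 drought and 24.4, 27.3 and 22.9 FPKM in PI 567690 control (log2 difference 0.43 ± 0.21 SE, interval -0.04 to 0.9, adjusted p = 0.202). Cons6 had 27.8, 28.2 and 29.2 FPKM in PI 567690 drought and 24.2, 26.7 and 25.2 FPKM in PI 567690 control. The cons6 groups were parted by a narrow margin, with a log2 difference of 0.16 ± 0.27 SE (interval -0.43 to 0.75, adjusted p = 0.721). This difference turned to -0.088 after the libraries were scaled to an equal median ratio. Relative to the other 5 reference genes it was -0.28, on a scale where some members must be negative. That first scaling also lowered the values of the elongation factor, TIP41, cons15 and cons4, to 0.39, 0.35, 0.47 and 0.18, and that of all gene models to a median of 0.0099.

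Actin was the exception. It had 56.3, 49.3 and 47 FPKM in PI 567690 drought and 51, 63.5 and 59.8 FPKM in PI 567690 control. The groups overlapped, and the drought mean was the lower of the 2 (log2 difference -0.19 ± 0.22 SE, interval -0.68 to 0.31, adjusted p = 0.601). After scaling to an equal median ratio the difference was -0.44 (interval -0.84 to -0.03, adjusted p = 0.154), with an unadjusted p of 0.0375. In the deposited FPKM the interval leaves room for a fall to below the control level by 0.68 on the log2 scale, so the test does not show that actin was constant.

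The call in PI 567690 depended on which libraries set the spread. With the 6 PI 567690 libraries fitted alone, 4 of the 6 reference genes rose under drought: the elongation factor (adjusted p = 0.012), cons15 (0.0129), cons4 (0.0217) and TIP41 (0.0235). That fit called 45.1% of all gene models tested, 9495 of them higher and 5236 lower. Cons6 and actin did not pass there (adjusted p = 0.219 and 0.285). With all lines kept but Pana control library 1 and Pana drought library 3 left out, the elongation factor, cons15 and TIP41 passed (adjusted p = 0.0121, 0.0152 and 0.0183). That fit called 36.4% of all gene models, 7559 higher and 4359 lower. Leaving out Pana control library 1 alone let the elongation factor pass (adjusted p = 0.0365), against 19.7% of all gene models, 3681 higher and 2755 lower. Leaving out Pana drought library 3 alone let TIP41 pass (adjusted p = 0.049), against 21.6%, 4038 higher and 3020 lower. Over the 22 alternatives the adjusted p of the elongation factor ranged up to 0.382, that of cons15 to 0.575, that of cons4 to 0.909 and that of TIP41 to 0.512.

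In Pana the same comparison gave 0 of 6 called, where 2.15% of all gene models tested were called. At an unadjusted p under 0.05 cons4 alone passed, 1 of 6, against 29.7% of all gene models tested. Cons4 was also the one reference gene with no overlap, as were 15.8% of all gene models in this direction, and none was lower with no overlap, against 3.94% of all gene models tested. The median log2 difference was 0.28 over the 6 and 0.32 over all gene models tested. With the 6 Pana libraries fitted alone, 0 of the 6 passed (adjusted p from 0.479 to 0.838) and 0% of all gene models did, while 4054 gene models had an unadjusted p under 0.05.

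Cons4 had 21.9, 29.3 and 19.6 FPKM in Pana drought and 14.1, 16.5 and 19.3 FPKM in Pana control (log2 difference 0.47 ± 0.21 SE, interval 0.0023 to 0.94, adjusted p = 0.167). The gap between the lowest droughted and the highest watered library was small. TIP41 had 27.5, 25.5 and 18 FPKM in Pana drought and 18.3, 17.2 and 16.6 FPKM in Pana control (log2 difference 0.41 ± 0.22 SE, interval -0.08 to 0.89, adjusted p = 0.232). Drought library 3, which resembled a watered library over all gene models, was the one that overlapped the controls for TIP41. Without it and Pana control library 1, TIP41 passed as higher under drought in Pana (adjusted p = 0.0395), in a fit that called 31.3% of all gene models, 7773 higher and 2460 lower. That fit left out the lowest droughted value of TIP41 in Pana (18 FPKM) and the highest watered one (18.3 FPKM). It therefore cannot decide whether TIP41 rose. After scaling to an equal median ratio, which moved the median of all gene models to 0.029, the difference was 0.0048 for TIP41 (adjusted p = 0.991) and 0.074 for cons4 (adjusted p = 0.81).

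Cons6 had 27.6, 24.5 and 23.2 FPKM in Pana drought and 11.1, 21.4 and 25.6 FPKM in Pana control (log2 difference 0.43 ± 0.27 SE, interval -0.16 to 1.02, adjusted p = 0.293). The low value of control library 1 made most of this difference, which was 0.091 without it and 0.032 after scaling to an equal median ratio. Actin had 49.6, 51.6 and 41.2 FPKM in Pana drought and 33.5, 46.9 and 48.8 FPKM in Pana control (log2 difference 0.15 ± 0.22 SE, interval -0.34 to 0.64, adjusted p = 0.664). The elongation factor had 30.1, 32.9 and 23.7 FPKM in Pana drought and 19, 33.1 and 27.4 FPKM in Pana control (log2 difference 0.14 ± 0.24 SE, interval -0.39 to 0.68, adjusted p = 0.703). For both genes the groups overlapped, control library 1 was the lowest of all 12, and the difference turned to -0.26 after scaling to an equal median ratio.

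Cons15 ran the other way, with 97.7, 127 and 66.8 FPKM in Pana drought and 208, 97.6 and 86.4 FPKM in Pana control. Its log2 difference was -0.36 ± 0.35 (SE), with an interval from -1.13 to 0.42 (adjusted p = 0.501). Control library 1, the lowest of the 12 for 4 of the other reference genes, was the highest for cons15, and without it the difference was 0.034. After scaling to an equal median ratio it was -0.77 (adjusted p = 0.248).

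**Figure D2:**
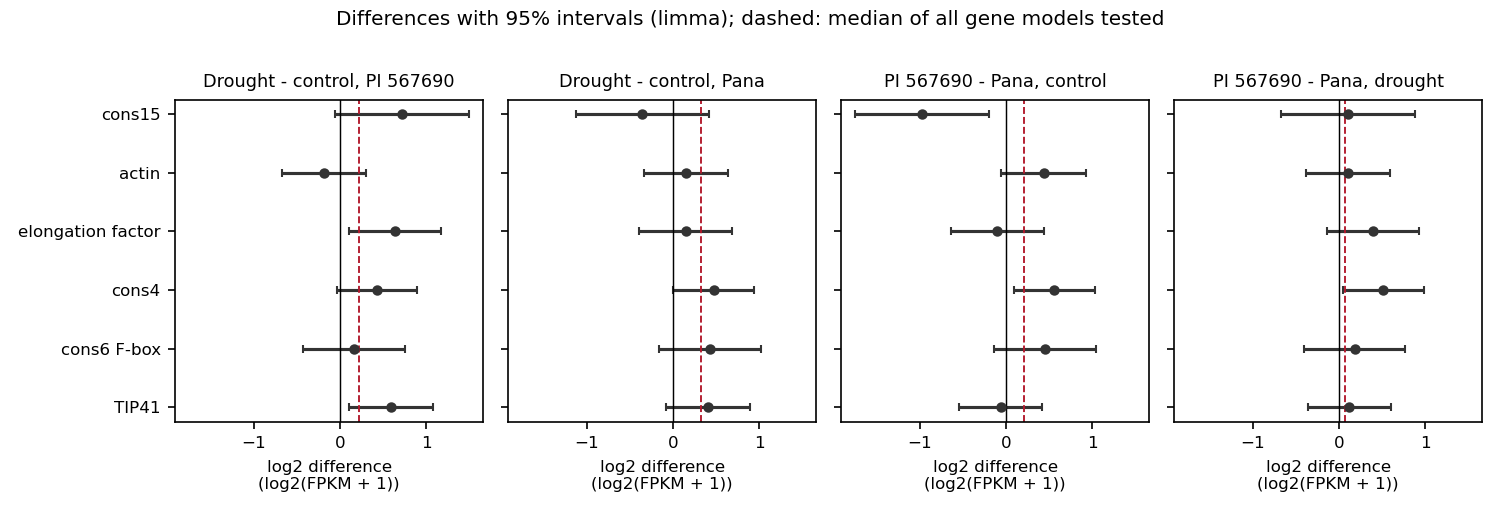
Log2 differences of the 6 reference genes (points) with 95% intervals from limma, for drought minus control in each line and for PI 567690 minus Pana in each treatment; dashed lines mark the median of all gene models tested. In PI 567690 the drought difference is above 0 for 5 of 6 genes, and the actin interval, from -0.68 to 0.31, includes 0.

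Whether the lines differed in the effect of drought on these genes was tested as the difference of the 2 effects (PI 567690 minus Pana). It passed in 0 of 6, where 5.59% of all gene models tested were called, and 0 of 6 had an unadjusted p under 0.05, against 19.1% of all gene models tested. After scaling to an equal median ratio the elongation factor (0.65, unadjusted p = 0.0434, adjusted p = 0.227) and cons15 (1.24, unadjusted p = 0.049, adjusted p = 0.24) had one. So had 6756 of the 32697 gene models tested after that scaling. Cons15 came nearest, with a log2 difference of 1.08 ± 0.5 (SE; interval -0.02 to 2.17, adjusted p = 0.271). That value was 0.69 without Pana control library 1. For actin it was -0.34 (interval -1.03 to 0.36, adjusted p = 0.601), for the elongation factor 0.5 (-0.26 to 1.25, 0.472) and for TIP41 0.19 (-0.5 to 0.87, 0.784). The intervals of all 6 hold differences in either direction, with those of cons6 (-1.11 to 0.57, adjusted p = 0.737) and cons4 (-0.71 to 0.62, adjusted p = 0.954) included.

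A standard used to compare lines has to hold between genotypes as well. Under control conditions 0 of 6 passed between PI 567690 and Pana, where 14.6% of all gene models tested were called. At an unadjusted p under 0.05 cons15 and cons4 passed, 2 of 6, against 29.4% of all gene models tested. Cons4 and actin were higher in PI 567690 with no overlap, a pattern of 28.1% of all gene models tested, and cons15 was lower with no overlap, a pattern of 12.5%. The log2 difference (PI 567690 minus Pana) was -0.98 ± 0.35 (SE; interval -1.75 to -0.2, adjusted p = 0.0908) for cons15, on the group means of 61.2 ± 7.63 FPKM in PI 567690 and 131 ± 67.2 FPKM in Pana (SD, n = 3). Without Pana control library 3, the lower level of cons15 in PI 567690 passed (adjusted p = 0.0441). That fit called 21.6% of all gene models, 5862 higher and 1213 lower in PI 567690. Without Pana control library 1 the log2 difference of cons15 was -0.59 (adjusted p = 0.215). Over 21 alternatives its adjusted p ranged from 0.0441 to 0.237.

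Cons4 averaged 24.8 ± 2.22 FPKM in PI 567690 control and 16.6 ± 2.64 FPKM in Pana control (log2 difference 0.56 ± 0.21 SE, interval 0.09 to 1.03, adjusted p = 0.108). It passed relative to the other 5 reference genes (adjusted p = 0.045), in a fit that called 15.4% of all gene models. Actin averaged 58.1 ± 6.44 FPKM in PI 567690 control and 43.1 ± 8.3 FPKM in Pana control (log2 difference 0.44 ± 0.22 SE, interval -0.06 to 0.93, adjusted p = 0.221). For actin this was the widest of the gaps in the deposited FPKM, but it was 0.27 without Pana control library 1 and 0.17 after scaling to an equal median ratio, where the drought difference in PI 567690 was -0.44. The elongation factor and TIP41 lay close together in the 2 lines, with log2 differences of -0.1 (interval -0.64 to 0.43) and -0.066 (-0.55 to 0.42). That closeness depended on the scaling, since the values were -0.37 and -0.33 after scaling to an equal median ratio, and the elongation factor stood at -0.32 without Pana control library 1.

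Under drought 0 of 6 passed between the lines, where 0.388% of all gene models tested were called. All 6 means were higher in PI 567690, by a median log2 difference of 0.15 against 0.06 over all gene models. Cons4, cons6 and the elongation factor did not overlap, a pattern of 10.7% of all gene models tested. None was lower with no overlap, against 3.37%, and cons4 alone had an unadjusted p under 0.05, 1 of 6, against 6.84% of all gene models tested. Cons4 averaged 33.7 ± 1.5 FPKM in PI 567690 drought and 23.6 ± 5.06 FPKM in Pana drought (log2 difference 0.51 ± 0.21 SE, interval 0.04 to 0.98, adjusted p = 0.654). The other 5 had log2 differences from 0.1 for cons15 to 0.39 for the elongation factor. The direction of cons15 and actin was not stable to scaling: after scaling to an equal median ratio they stood at -0.011 and -0.0087. Relative to the other 5 reference genes cons15, cons6, actin and TIP41 lay below 0. Such relative values cancel out over the 6, so some must lie below 0 and their signs cannot decide the direction.

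A single test over all 4 groups (limma's moderated F test) asks directly whether a reference gene keeps 1 level. Cons4 changed (adjusted p = 0.0376), 1 of 6, where 19.1% of all gene models tested were called. Differences between groups made up 83.2% of the variance of cons4 on the log2 scale, the highest share of the 6, followed by 68% for TIP41, 57.3% for the elongation factor, 50.6% for cons15, 49.2% for actin and 44.5% for cons6. The cons4 call is fragile. It was lost in 11 of 21 alternatives, among them each single PI 567690 library left out, Pana control library 2 left out, and scaling to an equal median ratio (adjusted p = 0.173). Without Pana control library 1 and Pana drought library 3, 4 of 6 passed (cons4, TIP41, cons15 and the elongation factor, adjusted p from 0.0137 to 0.0351), against 54.9% of all gene models. Without Pana drought library 3 alone, cons4 and TIP41 passed (adjusted p = 0.0164 and 0.0385), against 41.5%. Actin and cons6 did not pass in any of the 21 alternatives, with adjusted p from 0.0906 and 0.105 upward.

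Stability was then described by the SD of log2(FPKM + 1) over the 12 libraries, and set beside the SDs of the 500 gene models nearest in mean level (250 above and 250 below). This is a description with no test. Actin had the smallest SD, 0.24, and 3% of the gene models of its level were steadier. TIP41 had an SD of 0.32 (18% of its level steadier), the elongation factor 0.33 (20.2%), cons6 0.35 (25.4%) and cons4 0.4 (35.2%). Cons15 had an SD of 0.53, just above the median of its level (50% steadier). So 5 of the 6 were steadier than the median gene model of similar level.

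In plain FPKM, the highest library exceeded the lowest by 1.89 times for actin, 2.01 times for TIP41, 2.22 times for the elongation factor, 2.48 times for cons4, 2.63 times for cons6 and 3.97 times for cons15. The coefficient of variation was 15.9% for actin, 19.6% for cons6, 23.6% for the elongation factor, 24.5% for TIP41, 27.9% for cons4 and 42.3% for cons15. Actin had the lowest and cons15 the highest value under both measures. The range of cons15 rested on the 208 FPKM of Pana control library 1, with 127 FPKM in the next highest library. By the mean SD within the 4 groups, which leaves out differences between groups, cons4 was lowest (0.17, with 10.2% of its level steadier) and actin followed (0.19, 8.8% steadier).

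The rank of cons6 rested on a single library. At 11.1 FPKM, Pana control library 1 held less than any other library for cons6, which ranged from 21.4 to 29.2 FPKM elsewhere. Without that library the SD of cons6 was 0.13, and 1.2% of the gene models of its level were steadier. TIP41 moved the other way, to 38.4% of its level steadier, with an SD of 0.33. Without both Pana control library 1 and Pana drought library 3, cons6 and actin each had 1% of their level steadier, the elongation factor 26.4%, TIP41 41.2%, cons4 43% and cons15 43.4%.

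**Figure D3:**
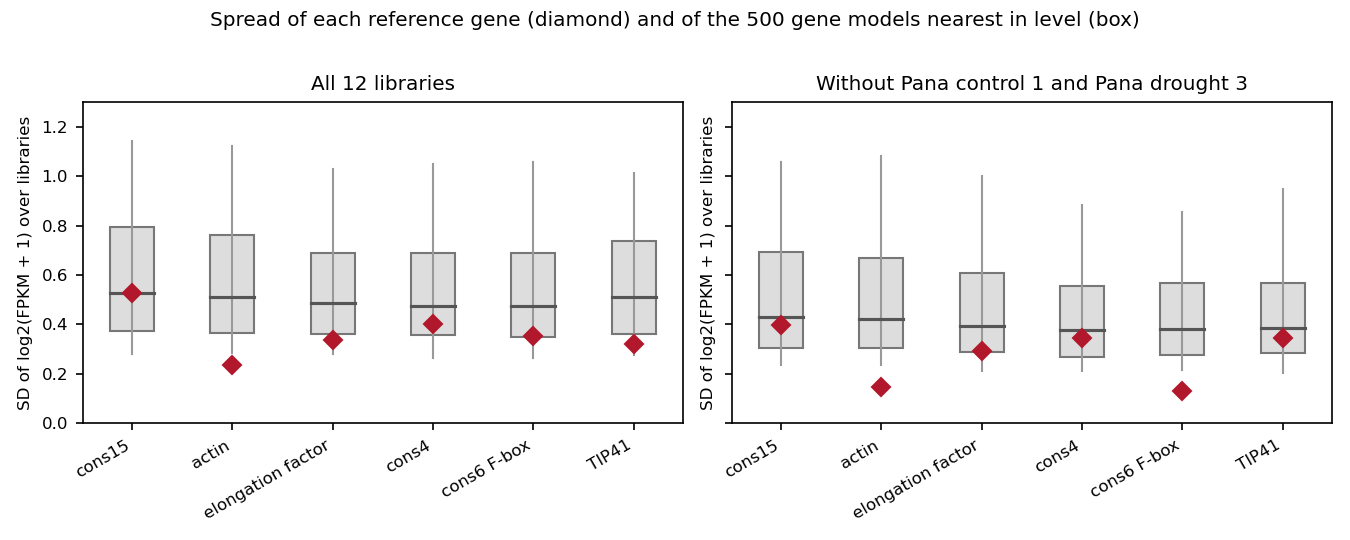
SD of log2(FPKM + 1) over libraries (vertical axis) for each reference gene (diamonds) and for the 500 gene models nearest in mean level (box: quartiles and median; line: 10th to 90th percentile), with all 12 libraries and without 2 that stand apart. Actin lies under the 10th percentile in both panels, and cons6 in the second only.

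Scaling also bears on the spread. Once libraries had been scaled to an equal median ratio, 5 of the 6 had a lower SD: 0.2 for cons6, 0.21 for actin, 0.22 for cons4, 0.23 for the elongation factor and 0.23 for TIP41. Between 2.4% (actin) and 10% (cons4) of the gene models of their level, scaled alike, were then steadier. Cons15 was the exception, with an SD of 0.63 and 54.4% of its level steadier.

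Since qPCR uses ratios, the 15 pairs of reference genes were compared by the SD of their log2 ratio over the 12 libraries, a measure that no scaling of the libraries can alter. The steadiest pair was cons6 with actin (SD 0.25), followed by the elongation factor with TIP41 (0.27) and cons4 with cons6 (0.28). A small SD does not mean no drought shift. In PI 567690 the log2 ratio of cons6 to actin was -0.84 ± 0.17 under drought and -1.19 ± 0.1 under control (SD), with no overlap. In Pana that ratio overlapped, and the ratio of the elongation factor to TIP41 overlapped in both lines. These shifts were not tested. The 5 pairs with cons15 were the least steady, from 0.5 with TIP41 to 0.81 with cons6. The ratio of cons15 to cons6 was highest in Pana control library 1 and lowest in PI 567690 control library 1, 8.67 times apart, and spanned 2.41 times without Pana control library 1.

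**Figure D4:**
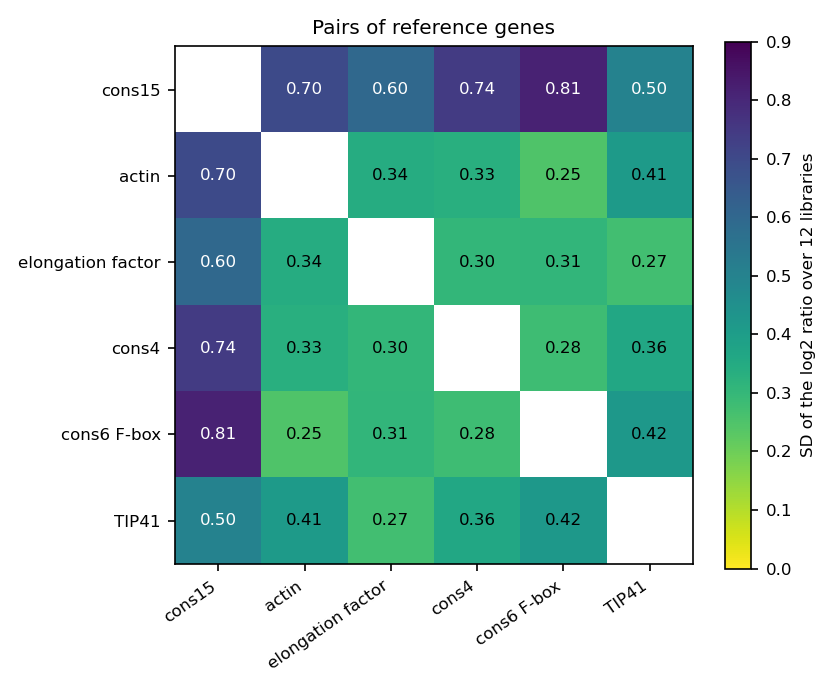
SD of the log2 ratio over the 12 libraries for each pair of the 6 reference genes (colour and number). The row of cons15 holds the 5 highest values, 0.5 to 0.81, and the lowest value is that of cons6 with actin, 0.25.

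The mean of these SDs over the partners of a gene is the M value of the geNorm method. A lower M marks a gene that is steadier relative to its partners, so genes that shift together also get a low M. M was 0.36 for the elongation factor, 0.39 for TIP41, 0.4 for cons4, 0.41 for actin, 0.41 for cons6 and 0.67 for cons15. The elongation factor and TIP41, the lowest in M, were both higher in every PI 567690 drought library than in every PI 567690 control library. Taking out the least steady gene at each step removed cons15, then TIP41, the elongation factor and cons4, and left cons6 with actin. Without Pana control library 1 the M of cons15 was 0.36 and that of the elongation factor 0.28, and the order changed. Cons15 still left first, followed by actin, cons4 and cons6, and the pair left was the elongation factor with TIP41 (M 0.25). By the SD of the ratio alone, cons6 with actin was still the steadiest pair without that library (0.19), followed by cons15 with the elongation factor (0.21, against 0.6 over all 12 libraries). The pair that stepwise removal leaves therefore depended on that library.

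The drought and control ratios overlapped for 5 of the 15 pairs in PI 567690 and for 12 of the 15 in Pana, and lay apart for the others. The 15 pairs share 6 genes, and no such share was computed over pairs of other gene models. Of single gene models tested, 42.4% were higher and 21.4% lower under drought with no overlap in PI 567690. In Pana these shares were 15.8% and 3.94%. The counts of pairs are therefore not read as a trait of the reference genes. As an example, chosen after its values were seen, the log2 ratio of actin to TIP41 was 1 ± 0.13 in PI 567690 drought and 1.81 ± 0.32 in PI 567690 control (SD, n = 3). In Pana it was 1.02 ± 0.17 under drought and 1.29 ± 0.37 under control. In PI 567690 the highest droughted ratio was 1.12 and the lowest watered one 1.44. This shift was not tested. For the elongation factor with TIP41 the log2 ratio was 0.58 ± 0.13 in PI 567690 drought and 0.54 ± 0.28 in PI 567690 control, and 0.3 ± 0.14 in Pana drought and 0.57 ± 0.47 in Pana control.

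Set against the mean of the other 5 reference genes, actin had log2 ratios of 0.38, 0.43 and 0.3 in PI 567690 drought and of 0.94, 1.13 and 1.18 in PI 567690 control. With the offset of those other 5 genes subtracted from all gene models, actin was lower under drought in PI 567690 (log2 difference -0.69, interval -1.12 to -0.26, limma adjusted p = 0.0336). That fit called 17% of all gene models. The scale itself moved, since the other 5 were each higher in every PI 567690 drought library than in every PI 567690 control library. In deposited FPKM the log2 difference of actin was -0.19. In FPKM as deposited, and in the other 21 alternatives, the adjusted p of actin in this comparison was above the threshold, up to 0.82. So actin, the gene with the smallest SD by its own level, was lower relative to the rest of the panel. No other member passed in this comparison after scaling to its partners.

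The panel as a whole was used as a qPCR normalizer would be, by the mean log2 level of the 6 in each library relative to the mean over libraries. The offsets were 0.41, 0.18 and 0.22 in the PI 567690 drought libraries and -0.19, -0.03 and -0.16 in the PI 567690 control libraries. They were 0.11, 0.23 and -0.24 in the Pana drought libraries and -0.31, -0.11 and -0.1 in the Pana control libraries. All droughted libraries but Pana drought library 3 lay above all watered ones, and the range from the lowest to the highest was 0.71. The order turned with the scaling: once all libraries had an equal median ratio, Pana control library 1 was the highest, PI 567690 control library 1 the lowest, and the range 0.41.

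The median over all gene models tested followed a like course, with group means of 0.16 ± 0.1 in PI 567690 drought and -0.04 ± 0.02 in PI 567690 control, and of 0.08 ± 0.14 in Pana drought and -0.26 ± 0.21 in Pana control (SD, n = 3). The panel stood at 0.27 ± 0.12 in PI 567690 drought and -0.12 ± 0.09 in PI 567690 control, a wider step than that median. In Pana it stood at 0.03 ± 0.24 under drought and -0.17 ± 0.12 under control, a narrower one. Neither step was tested, since the panel is a chosen set.

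**Figure D5:**
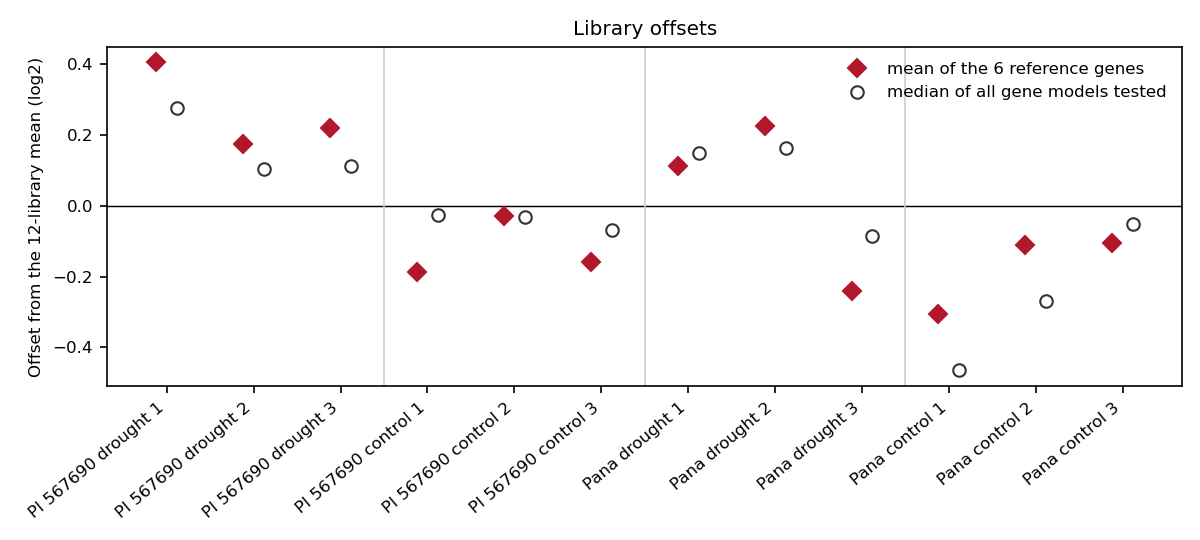
Offset of each library from the 12-library mean on the log2 scale, for the mean of the 6 reference genes (diamonds) and for the median of all gene models tested (circles). The reference genes run from -0.31 in Pana control library 1 to 0.41 in PI 567690 drought library 1.

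Subtracting the offset of the 6 genes from the log2 values of all gene models shifted the balance of calls in PI 567690. The drought comparison then called 4477 gene models, 981 higher and 3496 lower, against 4023 in the deposited FPKM, 1981 higher and 2042 lower. The share of rises was 21.9% in place of 49.2%, and 34.7% after scaling to an equal median ratio. In Pana it was 59.6% of 599 calls in place of 69.5% of 704, and 42.2% after scaling to an equal median ratio. The median log2 difference of all gene models in PI 567690 was -0.18 with the offset subtracted and 0.21 before. That shift only restates the step of the panel itself. Gene models with low FPKM were moved by the full offset too, which scaling their FPKM would not do. The equal median ratio was applied to the FPKM, so its shares of rises are not like measures. The counts after subtraction are therefore not those of FPKM scaled to the panel. How many of the falls arose in this way was not tested.

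Some other gene models of similar level had a smaller spread than any of the 6. Of 4057 with a mean between the lowest and the highest of the 6, 212 (5.23%) had a smaller SD than actin. The steadiest were Glyma17g37730, at 22.8 ± 1.83 FPKM with a range from 20.5 to 27.1 FPKM, and Glyma10g04480, at 27.8 ± 2.16 FPKM with a range from 24.8 to 31.7 FPKM (n = 12). Their SDs on the log2 scale were both 0.11. They were picked as the lowest of many on these libraries, so their values are a description, and their identifiers are not paired with names here.

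The gene models whose profile over the 12 libraries was most like the mean of the 6 were Glyma10g00690 (Pearson r = 0.985, 9.35 ± 3.14 FPKM) and Glyma06g14610 (r = 0.979, 22.1 ± 7.2 FPKM). Among the 6 themselves, r with that mean profile was 0.909 for the elongation factor, 0.837 for cons4, 0.829 for TIP41, 0.621 for cons6, 0.437 for actin and 0.204 for cons15. These correlations are over 12 libraries that share the depth and scaling of each library, and each reference gene is part of the mean it is compared with. The elongation factor was thus closest to the course of the panel, and actin and cons15 followed it least.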

How the data were processed

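The members and the gene lists were chosen with earlier results of these data known. RNA of leaves was measured in 4 groups of 3 libraries, placed by the line and treatment in each column name. The submitters' processing notes list Cuffdiff, Cufflinks, FastQC and TopHat (version 1.4.1) without saying what each did, and the series design adds a BWA and ANOVA route. The genome build is not given in the sources used here, nor is the annotation. The unit of the table, made by the authors and deposited without a unit name, was read as FPKM from the values. Reads shared by near-identical gene copies, common in soybean, may have been split between them. Of the identifiers, 0 matched the 59048 genes of the RefSeq table, so no sequence is shown.

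Gene models that reached 1 FPKM in 3 or more libraries (32697, all 6 members among them) were fitted by limma 3.58.1 (R 4.3.3) as log2(FPKM + 1), with a mean-variance trend (1 coefficient per group, Benjamini-Hochberg adjustment over all gene models, threshold 0.05). The script was tested on simulated data. Whole reads were sought from the step size of low values; of 3000 sampled gene models above 0 in all libraries 61.6% gave them within 0.06 reads. No total depth is known, only relative depth. The genes named were all members, the 2 steadiest other gene models in the members' range of level and the 2 most like their mean profile. Alternatives covered scaling, pseudocount, filter, libraries left out or averaged, a replicate block, lines fitted alone and the measure of spread. Plots used Python 3.11.15 and matplotlib 3.10.9.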

Additional observations from a re-analysis of the deposited data

How the results depend on the processing

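With all 12 libraries the counts of members called were 0 in each of the 5 contrasts, which called 0.388% to 14.6% of all gene models tested. In the test over 4 groups the count was 1 (19.1% of all gene models tested). Percentages in brackets below are such shares for the same fit. The count for drought in PI 567690 was 4 with that line alone (45.1%) and 3 without both Pana control library 1 and Pana drought library 3 (36.4%). It was 1 after scaling to the other members (17% in the fit for actin). With single libraries left out it was 0 to 1 (19.7% and 21.6% in the fits that called 1). For drought in Pana it was 1 without both of those libraries (31.3%). Between the lines under control it was 1 after scaling to the other members (15.4% in the fit for cons4). With single libraries left out it was 0 to 1 (21.6% in the fit that called 1). The test over 4 groups called 0 after scaling to an equal median ratio (16.4%) and after scaling to the other members. It also called 0 with PI 567690 drought libraries 2 and 3 averaged (11%) and with the replicate block (19.9%, adjusted p of cons4 0.0509). Without both doubted Pana libraries it called 4 (54.9%), and with single libraries left out 0 to 2 (41.5% in the fit that called 2). The other counts were 0 in each alternative.

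Whether the number in the column names pairs the libraries is not known. Deviations of same-numbered libraries correlated at -0.109 to 0.656 and those of other numbers at -0.669 to 0.603. Deviations within a group sum to 0, so these ranges cannot decide it. Between PI 567690 drought and Pana drought, r was 0.656 for libraries 1, -0.109 for libraries 2 and 0.608 for libraries 3. The block was kept as an alternative, and it changed the cons4 call alone.

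Some directions turned, all for differences that had not passed, since no member had passed in any contrast with a direction. Scaling to an equal median ratio gave -0.088 for cons6 under drought in PI 567690, -0.26 for both the elongation factor and actin under drought in Pana, 0.11 for the cons4 difference of effects, and -0.011 for cons15 and -0.0087 for actin between the droughted lines. Values relative to the other members cancel out over the panel, so some must be negative and their signs cannot show a turn. Scaling to the other members gave -0.28 for cons6 under drought in PI 567690, and -0.076 for the elongation factor and -0.069 for actin under drought in Pana. Between the droughted lines it gave -0.16 for cons15, -0.067 for cons6, -0.16 for actin and -0.14 for TIP41. Without both doubted Pana libraries it was 0.28 for cons15 under drought in Pana, 0.015 for the cons6 and -0.027 for the TIP41 difference of effects, and -0.14 for cons15 and -0.056 for TIP41 between the droughted lines. With single libraries left out, drought in Pana ranged from -0.069 to 0.32 for the elongation factor, -0.59 to 0.034 for cons15 and -0.017 to 0.25 for actin. The difference of effects ranged from -0.16 to 0.12 for cons4 and -0.501 to 0.068 for cons6. Between the lines the elongation factor ranged from -0.32 to 0.069 under control, cons15 from -0.14 to 0.32 and TIP41 from -0.056 to 0.23 under drought. The cause was not tested.

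The range of the library offsets, 0.71, was 0.41 after scaling to an equal median ratio and 0.53 to 0.71 with single libraries left out. The mean M, 0.44, was 0.32 to 0.46 with single libraries left out. Members steadier than the median of their level numbered 5 to 6 in all alternatives. Pairs and the order by M without Pana control library 1 were chosen after seeing the data. Cons4 gave no whole reads, so its counting error is unknown.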
